A study of Homo sapiens with 21 samples.

Results

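Keratins are the intermediate filament proteins of epithelial cells. They were followed here in OCI-AML5, a human acute myeloid leukemia cell line, as protein-coding genes whose symbol is KRT followed by a number and, for some, a letter A to C. Of 58174 genes in the tables, 57392 had a symbol and 55 met this rule, 29 encoding type I (acidic) and 26 type II (basic) keratins. Keratin-associated proteins (KRTAP genes) and pseudogenes were left out of the 55. Poly(A) RNA from 21 libraries was sequenced, 3 in each of 7 groups. The first 5 groups were OCI-AML5 cells kept in DMSO, the vehicle, labelled 72 h, and cells exposed to UM171, a small molecule that expands hematopoietic stem cells ex vivo, for 6, 24, 48 or 72 h. The other two were clones that express a CRISPR guide against EPCR, the protein C receptor encoded by PROCR (genotype label EPCR knockdown), kept for 24 h in DMSO (sgEPCR DMSO) or in UM171 (sgEPCR UM171). The labels give the UM171 dose as 500 nM, the study's figure legends give a lower one, and the labels neither name a guide for the first 5 groups nor say which clone gave which library. The sgEPCR groups were compared with the DMSO and UM171 24 h groups, called control cells here, so that the comparison in DMSO also sets libraries labelled 24 h against libraries labelled 72 h. The 6, 24 and 48 h contrasts likewise use DMSO libraries labelled 72 h. The difference between the responses of control and sgEPCR cells therefore carries the same mismatch.

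A keratin filament is built from pairs of a type I and a type II chain, and the pair in use differs with the tissue and layer. Simple epithelia use KRT8 with KRT18 or KRT19, basal cells of stratified epithelia use KRT5 with KRT14 or KRT15, the layers above use other pairs such as KRT1 with KRT10 in epidermis and KRT4 with KRT13 in mucosa, and KRT9 is the keratin of palm and sole epidermis. Most type I genes lie in a cluster on chromosome 17 and most type II genes in a cluster on chromosome 12. Blood cells build their cytoplasmic intermediate filaments mainly from vimentin.

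The values were RSEM's expected counts and TPM (transcripts per M transcripts, which divides by transcript length and so allows levels of different genes to be compared). A count of 3 was taken as the smallest signal. Library totals lay between 24.3 M and 51.5 M counts. Replicate 1 of sgEPCR DMSO (35.9%) and replicate 2 of sgEPCR UM171 (32.2%) had a high share of mitochondrial counts, while 19 libraries had 7.73 to 13.5%, and the sgEPCR results that changed most without the 2 rich libraries are also given without them. All 8 myeloid markers looked for, MPO and SPI1 among them, reached 3 counts in every library, with a summed level of 895 to 2654 TPM. Nothing in the labels says whether the 3 libraries of a group came from separate cultures, and p-values then measure only the spread between these libraries. In bulk RNA, more cells with a transcript and more transcript per cell cannot be told apart.

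Of the 55 keratin genes, 38 had 0 counts in all 21 libraries. These included KRT5, KRT1, KRT18, KRT20 and all the hair keratins of the KRT31 to KRT40 range. A further 6 (KRT4, KRT14, KRT16, KRT23, KRT27 and KRT86) had a count somewhere but never 3, and 3 more (KRT8, KRT17 and KRT78) reached 3 in single libraries without doing so in all 3 of any group. The remaining 8 reached 3 counts in every library of at least 1 group: KRT9, KRT10, KRT13, KRT15 and KRT19 of type I and KRT7, KRT79 and KRT80 of type II. RSEM's posterior standard deviation of the count was 0 for these 8 genes in all libraries, so none of their counts depended on splitting reads with another gene. The genes upstream of whose start a sequence was given in the RefSeq promoter table (build GRCh38.p14) numbered 34 of 55, with KRT9, KRT79 and KRT10 among them and KRT13, KRT15 and KRT19 not. The 250 bases before the start of these 3 genes are shown 5′ to 3′ because KRT9 and KRT79 rose under UM171 and KRT10 did not. Capitals mark matches on either strand to the TATA box letters TATAAA, to the AP-1 letters TGANTCA, to the RUNX letters TGTGGT, to the PU.1 letters GAGGAA, to the letters AGATAA that GATA factors bind, or to the NF-kB motif. The KRT79 matches do not overlap each other, nor do those of KRT10.

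KRT9 (chr17:41572060-41572309, minus strand): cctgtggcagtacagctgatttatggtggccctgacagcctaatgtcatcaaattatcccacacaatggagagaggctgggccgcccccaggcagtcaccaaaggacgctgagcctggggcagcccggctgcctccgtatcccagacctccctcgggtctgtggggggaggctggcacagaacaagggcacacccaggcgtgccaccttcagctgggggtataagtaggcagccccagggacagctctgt

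KRT79 (chr12:52834312-52834561, minus strand): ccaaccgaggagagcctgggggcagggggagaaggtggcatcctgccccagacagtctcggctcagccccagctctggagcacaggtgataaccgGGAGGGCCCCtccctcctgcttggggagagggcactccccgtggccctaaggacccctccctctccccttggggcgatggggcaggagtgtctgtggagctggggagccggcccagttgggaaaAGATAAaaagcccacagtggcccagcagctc

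KRT10 (chr17:40822615-40822864, minus strand): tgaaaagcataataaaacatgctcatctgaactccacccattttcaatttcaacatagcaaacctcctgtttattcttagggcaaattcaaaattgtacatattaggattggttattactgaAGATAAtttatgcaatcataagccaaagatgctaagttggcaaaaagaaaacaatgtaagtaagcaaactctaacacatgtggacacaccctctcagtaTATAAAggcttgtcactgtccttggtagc

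None of the 6 motifs matched in the KRT9 window, whose GC content was 62%. The KRT79 window (GC 66.8%) held a GATA match from 31 to 26 bases before the start and an NF-kB match from 155 to 146 bases before it. The KRT10 window (GC 34.8%, no CpG) held TATAAA from 29 to 24 bases before the start and a GATA match from 128 to 123 bases before it. Among all 35116 promoter windows of this length, TATAAA occurred in 10.7%, the AP-1 letters in 6.57%, the RUNX letters in 11%, the PU.1 letters in 23.6%, the GATA letters in 9.17% and the NF-kB motif in 9.96%. Among the 38 windows of keratin genes, some of which have several starts, TATAAA occurred in 55.3%, the AP-1 letters in 0%, the RUNX letters in 13.2%, the PU.1 letters in 23.7%, the GATA letters in 36.8% and the NF-kB motif in 5.26%. A match to letters is not a binding site.

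In DMSO the keratin transcripts of OCI-AML5 were nearly all KRT10, the type I partner of KRT1 in suprabasal epidermis. KRT10 stood at 55.52, 45.1 and 43.28 TPM in the 3 DMSO libraries, which was 95.8% ± 0.838 (SD, n = 3) of all keratin TPM. KRT9 followed with 3.02% ± 0.408 (SD, n = 3). KRT9, KRT10 and KRT79 were the keratins at 3 counts or more in every DMSO library, and KRT7 and KRT80 reached 3 in 2 of the 3. The summed keratin level was 50.1 ± 6.43 TPM without UM171. It was 54.8 ± 4.45 TPM after 6 h of UM171 and 71.3 ± 7.76 TPM after 24 h, then 137 ± 25.2 TPM after 48 h and 147 ± 16.9 TPM after 72 h (mean ± SD, n = 3). The lowest sums at 24 h (66.5 TPM), 48 h (109 TPM) and 72 h (130 TPM) lay above the highest in DMSO (57.4 TPM). By 72 h KRT10 made up 20.5% ± 1.62 of the keratin TPM, KRT9 40.8% ± 2.61, KRT15 29.1% ± 1.5 and KRT13 6.95% ± 0.777 (SD, n = 3). Nearly all of this was type I: at 72 h the 29 type I genes summed to 144 ± 16.4 TPM and the 26 type II genes to 3.51 ± 0.584 TPM (SD, n = 3).

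**Figure D1:**
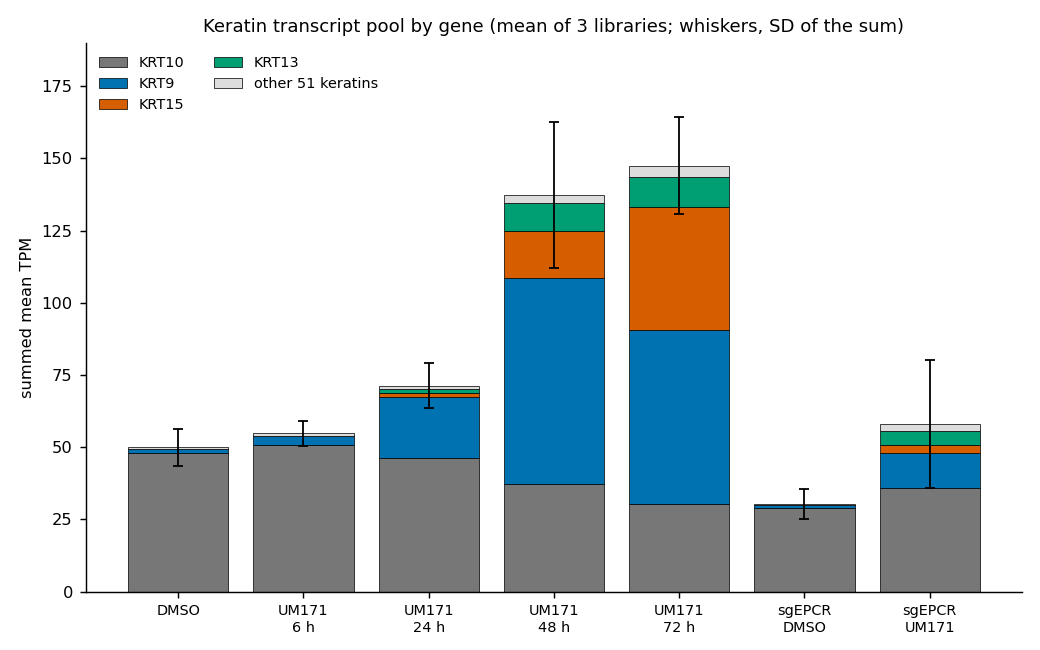
Mean TPM of keratin genes stacked by gene for each of the 7 groups (n = 3 libraries; whiskers, SD of the summed TPM). KRT10 fills nearly the whole bar in both DMSO groups, and KRT9, KRT15 and KRT13 take up most of it at 48 and 72 h of UM171.

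KRT15, a type I keratin of basal keratinocytes and hair follicle stem cells, went from no counts in DMSO to the second highest keratin level at 72 h. Its counts were 0, 0 and 0 in DMSO, 1, 3 and 4 at 6 h, 64, 57 and 42 at 24 h, 690, 473 and 304 at 48 h, and 985, 1165 and 1168 at 72 h. Every library from 24 h on lay above every earlier one, and each later group lay above the group before it. The level was 1.4 TPM on average at 24 h, 16.4 TPM at 48 h and 42.7 TPM at 72 h. Set against the floor of 3 counts in each DMSO library, KRT15 was at least 16.4-fold higher at 24 h, 160-fold at 48 h and 352-fold at 72 h. The test was fitted to the 0 counts in DMSO and not to these folds. It gave adjusted p = 2.0e-08, 4.2e-13 and 2.7e-14 (edgeR quasi-likelihood test with Benjamini-Hochberg adjustment over all genes tested). At 6 h the adjusted p was 0.014, short of the limits of 0.0001 and 2-fold that defined a call, and 1 of the 3 libraries was under 3 counts.

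KRT13, the suprabasal type I keratin of non-cornified mucosa, rose over the same interval. It had 0, 3 and 1 counts in DMSO, 0, 2 and 1 at 6 h, 39, 47 and 25 at 24 h, 421, 283 and 257 at 48 h, and 275, 358 and 359 at 72 h. The DMSO and 6 h groups overlapped, and both lay below the 3 later groups. With 4 counts in DMSO in all, the ratio of scaled counts was 24 at 24 h (95% exact binomial interval 9.12 to 89.7), 241 at 48 h (93.8 to 886) and 237 at 72 h (92.5 to 873). Such intervals cover counting error only. The fitted log2 fold change was 4.47 ± 0.42 at 24 h, 7.80 ± 0.29 at 48 h and 7.77 ± 0.29 at 72 h (± SE, edgeR adjusted p = 5.5e-08, 2.2e-13 and 1.5e-13).

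KRT9 differed from these in having a clear level before treatment. It stood at 1.54, 1.37 and 1.58 TPM in DMSO, 2.81, 2.78 and 2.96 at 6 h, 20.4, 19.39 and 23.44 at 24 h, 73.86, 84.62 and 55.69 at 48 h, and 50.99, 64.37 and 65.38 at 72 h. No group overlapped another apart from 48 and 72 h. The 6 h libraries were already 1.69-fold above DMSO (log2 0.76 ± 0.16, edgeR adjusted p = 6.9e-04), which is under both limits for a call. The change was 13.5-fold at 24 h, 43.4-fold at 48 h and 35.2-fold at 72 h (log2 3.75, 5.44 and 5.14, each ± 0.12 SE, edgeR adjusted p = 8.9e-14, 4.2e-16 and 6.2e-16). At its 48 h mean of 71.4 TPM KRT9 was the most abundant keratin, above KRT10 in each of the 3 libraries.

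KRT79, a type II keratin of the sebaceous duct and upper hair follicle, moved later than the others. Its counts were 9, 7 and 9 in DMSO, 18, 5 and 12 at 6 h and 11, 14 and 13 at 24 h. They then reached 99, 71 and 39 at 48 h and 90, 123 and 116 at 72 h. The 6 h libraries overlapped DMSO, the 24 h libraries lay between 0.18 and 0.54 TPM against 0.16 to 0.19 TPM in DMSO, with overlap, and the 48 and 72 h libraries lay above all of these. The log2 fold change was 0.47 ± 0.41 at 6 h and 0.42 ± 0.40 at 24 h (edgeR adjusted p = 0.33 and 0.36), then 3.03 ± 0.31 at 48 h and 3.64 ± 0.30 at 72 h (edgeR adjusted p = 1.5e-07 and 6.6e-09).

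KRT10 went the other way by a smaller amount. It stood at 42.85, 45.06 and 50.99 TPM at 24 h, 40.25, 41.76 and 29.33 TPM at 48 h, and 27.61, 35.45 and 27.87 TPM at 72 h. The 72 h libraries all lay below the 3 DMSO libraries. At 72 h the log2 fold change was -0.67 ± 0.11 (edgeR adjusted p = 3.7e-05), past the limit on p but not that of 2-fold. The annotated antisense gene KRT10-AS1 overlaps KRT10, at a median of 293 counts in DMSO and 186 at 72 h. The library kit marks strand, and whether the counting used it is not given in the sources used here. With a posterior standard deviation of 0 for the KRT10 count, RSEM split no KRT10 reads with the antisense gene.

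**Figure D2:**
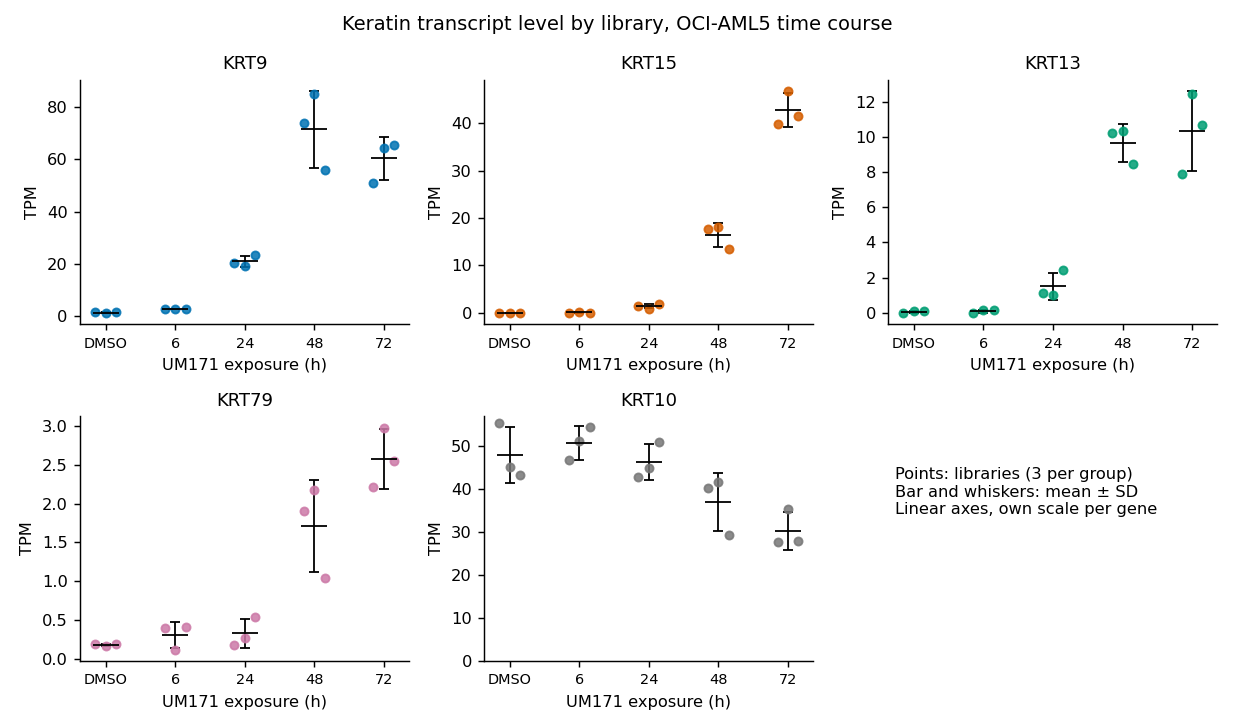
TPM of 5 keratin genes in each library of the time course (points, 3 per group; bar and whiskers, mean ± SD; linear axes with a scale of their own). KRT9 is above DMSO from 6 h (2.78 to 2.96 against 1.37 to 1.58 TPM), KRT15 and KRT13 leave the DMSO level at 24 h and KRT79 at 48 h, while KRT10 is lower at 72 h.

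The 3 other keratins that reached the floor in a whole group stayed near it. KRT19, the simple epithelial type I keratin, had 0 counts in every DMSO and 6 h library, 1, 0 and 0 at 24 h, 2, 3 and 2 at 48 h, and 6, 4 and 7 at 72 h. Its 72 h level of 0.2 to 0.27 TPM was at least 1.8-fold above the floor of 3 counts per DMSO library, and it had too few counts to be tested. KRT7, the type II keratin of glandular and ductal epithelia, had 2, 3 and 5 counts in DMSO and 9, 7 and 1 at 72 h, a ratio of 1.63 with a 95% exact binomial interval of 0.704 to 3.98. KRT80, a type II keratin found widely in epithelia, had 4, 9 and 2 counts in DMSO and 5, 5 and 9 at 72 h, a ratio of 1.21 (0.584 to 2.56). Both intervals include no change and a rise of more than 2-fold, so no difference was detectable at this depth.

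As a count over the family, a keratin was said to be switched on where every DMSO library held fewer than 3 counts and every UM171 library 3 or more. Of the 49 keratins under 3 counts in all DMSO libraries, 0 were switched on at 6 h, 1 (KRT15) at 24 h and again at 48 h, and 2 (KRT15 and KRT19) at 72 h. Among all 6031 protein-coding genes under the floor in DMSO, 2.39%, 3.12%, 4.08% and 5.47% met the same rule at the 4 times, so the keratins' share was near the background. KRT13 was kept out by DMSO replicate 2, which held exactly 3 counts, and without that library the numbers were 2 at 24 h and 2 at 48 h. The shares of all protein-coding genes without it are not given here.

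Only 5 of the 55 had enough counts to be tested across the time course, namely KRT9, KRT10, KRT13, KRT15 and KRT79. KRT13, KRT15 and KRT79 passed that filter through their UM171 libraries alone, so the count of calls among the 5 is a description. At 6 h 0 of the 5 were called, with 2 (KRT9 and KRT15) at an adjusted p under 0.05 by edgeR, which 62.1% of all genes reached, and 0 called by DESeq2. The number of keratins called higher was 3 at 24 h, 4 at 48 h and 4 at 72 h, against 6.78%, 9.03%, 11.7% and 15% of all 16575 genes tested at the 4 times. None was called lower, against 0.247%, 4.7%, 4.67% and 5.8% of all genes. Between successive times, 3 (KRT9, KRT13 and KRT15) were called higher from 6 to 24 h (3.61% of all genes) and 4 from 24 to 48 h (2.51%). From 24 to 48 h KRT13 rose 10.0-fold, KRT15 10.2-fold, KRT79 6.09-fold and KRT9 3.22-fold (edgeR adjusted p from 1.4e-10 to 2.0e-06). By limma on log2(TPM + 1) 3 were called in that step. KRT79 missed the limit on p there (1.01 ± 0.15, limma adjusted p = 2.8e-04). From 48 to 72 h KRT15 alone was called (2.59% of all genes), at 2.19-fold (log2 1.13 ± 0.11, edgeR adjusted p = 3.5e-07). KRT9 had a log2 change of -0.30 ± 0.08 in that step and KRT13 one of -0.03 ± 0.13 (edgeR adjusted p = 0.0046 and 0.85). All contrasts against DMSO share the same 3 DMSO libraries. The third 48 h library had the lowest TPM of its group for each of KRT9, KRT10, KRT13, KRT15 and KRT79, and the 48 h calls were the same in number without it.

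**Figure D3:**
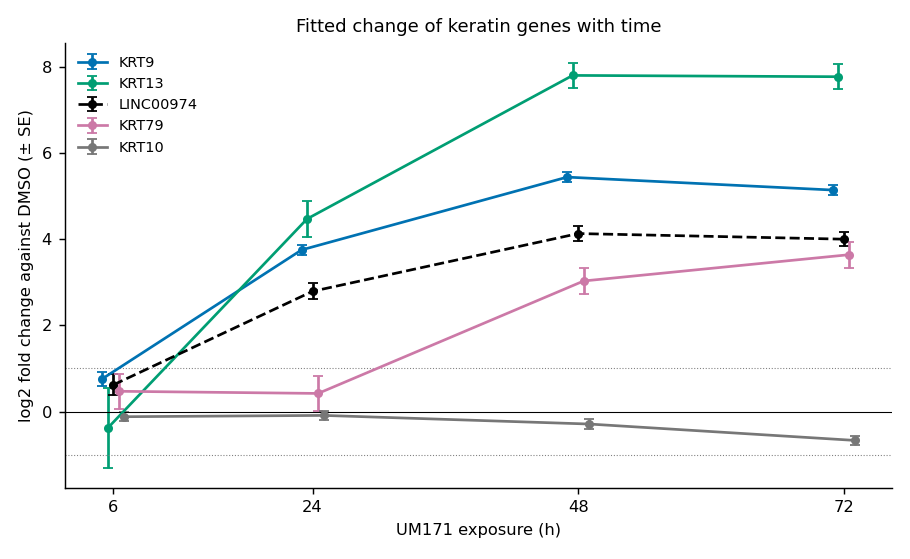
Fitted log2 fold change against DMSO with its SE at 6, 24, 48 and 72 h of UM171 (n = 3 libraries per group; points shifted sideways slightly; dotted lines, 2-fold). KRT13, KRT9 and the long noncoding gene LINC00974 rise by 24 h and again by 48 h, KRT79 rises after 24 h, and KRT10 stays within 2-fold. From 48 to 72 h the log2 change is -0.03 ± 0.13 for KRT13, -0.13 ± 0.12 for LINC00974 and -0.30 ± 0.08 for KRT9 (± SE). KRT15 is not drawn since its DMSO libraries held 0 counts.

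The 3 keratins that rose most and KRT19 are chromosomal neighbours, a stretch looked at after their values had been seen. In the order of the GENCODE annotation (GRCh38) on chromosome 17 they are KRT13 (chr17:41500981-41505705), KRT15 (chr17:41513745-41522529), KRT19 (chr17:41523617-41528308) and KRT9 (chr17:41565836-41572059), all on the minus strand. The 71.1 kb from KRT13 to KRT9 hold no other protein-coding gene. LINC00974 lies between KRT19 and KRT9 (chr17:41549606-41554495). It had 15, 15 and 16 counts in DMSO, 22, 29 and 20 at 6 h, 150, 155 and 68 at 24 h, 352, 218 and 231 at 48 h, and 254, 256 and 260 at 72 h. Its libraries from 24 h on lay above all DMSO and 6 h libraries, with a log2 fold change of 2.79 ± 0.19 at 24 h and 4.13 ± 0.17 at 48 h (edgeR adjusted p = 6.8e-10 and 1.1e-12). The next keratins outward did not follow. KRT36, on the KRT13 side, had 0 counts in all libraries, KRT14 and KRT16, past KRT9, never exceeded 1 count, and KRT17 had 0 to 5. Past KRT17, EIF1 and JUP changed by log2 0.62 ± 0.05 and 1.00 ± 0.07 at 72 h, neither called, and GAST had 0 counts. HAP1, before JUP, went from 2, 3 and 4 counts in DMSO to 43, 30 and 53 at 72 h (log2 3.69 ± 0.39, edgeR adjusted p = 1.6e-07). It passed the filter through UM171 libraries alone and was picked after its values were seen, so this is a description. In sgEPCR UM171 HAP1 had 1, 0 and 1. KRT79 (chr12:52821408-52834311, minus strand) lies in the type II cluster on chromosome 12, where its neighbours KRT4 and KRT78 reached at most 2 and 5 counts in any library.

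**Figure D4:**
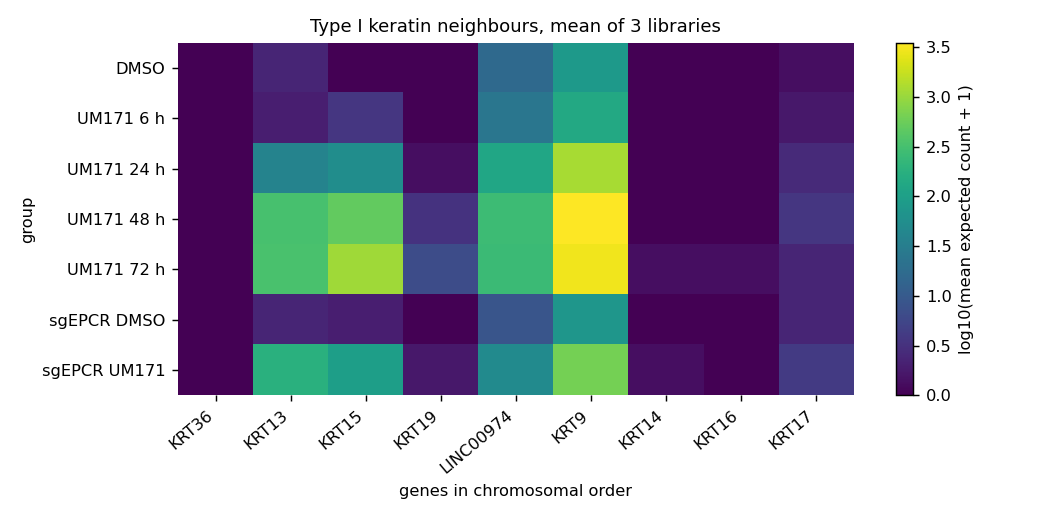
Mean expected count (n = 3 libraries, log10 of the count + 1) of 9 neighbouring genes on chromosome 17, in chromosomal order along the x axis, for the 7 groups down the y axis. KRT13, KRT15, LINC00974 and KRT9 brighten with UM171 in control and sgEPCR cells, KRT19 reaches a mean of 5.67 counts at 72 h, and KRT36, KRT14, KRT16 and KRT17 stay at means of 3 counts or fewer.

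The usual partners and the simple epithelial pair were looked for among genes at or near 0. KRT5, the partner of KRT15, KRT1, the partner of KRT9 and KRT10, and KRT18 had 0 counts in all 21 libraries. KRT4, the partner of KRT13, had at most 2 counts, and KRT8 at most 4. A count of 0 allows up to 3 counts per library. Reads of KRT8 and KRT18 can also be placed on their processed pseudogenes, of which 51 and 67 were listed. The KRT8 pseudogenes together held 34 to 228 counts per library, and the sum of KRT8 with them gave a log2 change of 0.54 ± 0.11 at 6 h and -0.73 ± 0.11 from 6 to 24 h (edgeR adjusted p = 4.8e-04 and 2.2e-05), then -0.35 ± 0.12 at 48 h and -0.12 ± 0.12 at 72 h against DMSO (edgeR adjusted p = 0.015 and 0.36). None of these passed the limits for a call. For KRT18 the pseudogenes held 6 to 41.5 counts, and the sum changed by 0.06 ± 0.32 at 72 h (edgeR adjusted p = 0.87). Of 94 KRTAP genes, which encode the matrix proteins of hair, 4 reached 3 counts in any library and 2, KRTAP5-7 and KRTAP5-9, did so in all 3 libraries at 72 h, with 9 counts as the highest value.

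Whether the keratin genes also responded in cells edited at EPCR was asked in the 12 libraries of the 24 h design. PROCR itself stood at 3.37, 3.38 and 4.3 TPM in control DMSO and at 2.3, 3.93 and 4.53 TPM in sgEPCR DMSO, which overlapped. In UM171 it stood at 48.5 TPM in all 3 control libraries and at 4.23, 8.41 and 8.94 TPM in sgEPCR cells, lower by a log2 difference of -2.63 ± 0.12 (edgeR adjusted p = 1.9e-07). In DMSO the log2 difference was 0.42 ± 0.12 (edgeR adjusted p = 0.022). PROCR RNA was thus lower in sgEPCR than in control cells in UM171 and not in DMSO, and the cause was not tested.

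The same 4 keratins, KRT9, KRT13, KRT15 and KRT79, were called higher in sgEPCR cells after 24 h of UM171, out of 6 tested (the other two were KRT7 and KRT10), against 6.99% of all 15901 genes. KRT7, KRT13, KRT15 and KRT79 passed the filter of this fit through UM171 libraries alone, so the count is a description. By limma on log2(TPM + 1) 0 of the 6 were called (adjusted p from 1.1e-04 to 0.0012 for the 4), and with total count scaling 3 were, KRT9 missing the limit on p (log2 3.09, edgeR adjusted p = 2.7e-04). KRT13 went from 2, 0 and 2 counts in sgEPCR DMSO to 209, 82 and 233 in sgEPCR UM171, a ratio of 115 (95% exact binomial interval 44.7 to 424, edgeR adjusted p = 3.1e-06). KRT15 went from 0, 2 and 1 counts to 113, 50 and 121, a ratio of 83.2 (28.2 to 406, edgeR adjusted p = 5.3e-06). KRT79 went from 0, 2 and 1 counts to 77, 33 and 53, a ratio of 47.7 (16 to 234, edgeR adjusted p = 8.7e-06). KRT9 went from 0.4, 1.6 and 1.67 TPM to 15.96, 4.84 and 15.7 TPM, with a log2 fold change of 2.91 ± 0.29 (edgeR adjusted p = 1.0e-05). None of these groups overlapped, and replicate 2, the library rich in mitochondrial counts, was the lowest sgEPCR UM171 library in each case. Without the 2 libraries rich in mitochondrial counts the number called was again 4, with a log2 fold change of 7.50 ± 0.44 for KRT13, 6.04 ± 0.43 for KRT15, 5.22 ± 0.57 for KRT79 and 2.96 ± 0.11 for KRT9. That fit called 1632 of 16360 genes higher. Leaving out single libraries, KRT9 missed the limit on p without sgEPCR DMSO replicate 2 (3.00, edgeR adjusted p = 1.1e-04) and KRT79 without sgEPCR DMSO replicate 3 (5.20, edgeR adjusted p = 1.5e-04).

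By the floor of 3 counts, 5 of 53 keratins were switched on in sgEPCR UM171 (KRT7, KRT13, KRT15, KRT79 and KRT80), against 5.37% of 6486 protein-coding genes. KRT7 went from 1, 0 and 0 to 13, 3 and 13 counts, a ratio of 25.5 with an interval of 4.22 to 1040, and did not pass the limits (log2 4.22 ± 1.00, edgeR adjusted p = 0.0047). Without the 2 libraries rich in mitochondrial counts it was at 6.66 ± 1.35 (edgeR adjusted p = 6.1e-04). KRT80 went from 0, 1 and 1 to 6, 5 and 13 counts, a ratio of 10.5 (2.62 to 92), and was not tested. At a floor of 10 counts the number switched on was 3, and the share of all protein-coding genes at that floor is not given here. KRT10 stood at 42.11, 22.74 and 43.15 TPM in sgEPCR UM171 and at 23.7, 31.77 and 31.08 TPM in sgEPCR DMSO. These overlapped, with a log2 fold change of 0.12 ± 0.17 (edgeR adjusted p = 0.6). The lowest library of sgEPCR UM171 and the lowest of sgEPCR DMSO were the 2 rich in mitochondrial counts, and without them the groups did not overlap and the log2 fold change was 0.40 ± 0.12 (edgeR adjusted p = 0.0079), under 2-fold.

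**Figure D5:**
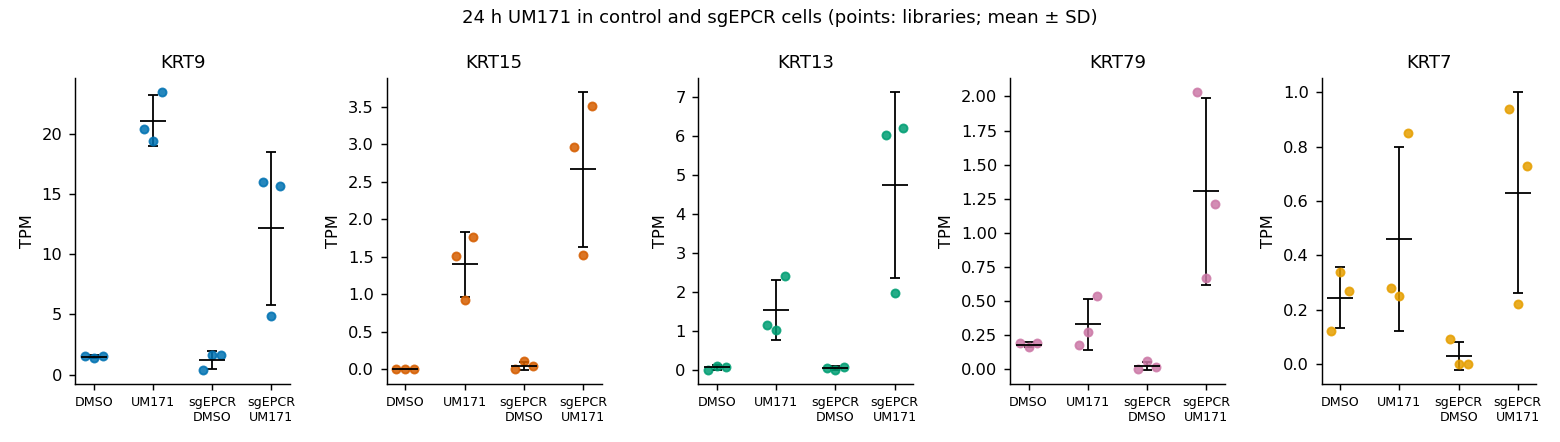
TPM of 5 keratin genes in the 12 libraries of the 24 h comparison (points, 3 per group; bar and whiskers, mean ± SD; linear axes with a scale of their own). All 5 are higher in sgEPCR UM171 than in sgEPCR DMSO, and for KRT79 the control UM171 libraries stay close to DMSO while the sgEPCR UM171 libraries reach 0.67 to 2.03 TPM.

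The responses of the control and edited cells were compared as the difference between their log2 fold changes at 24 h. Of 6 keratins tested, 0 passed the limits for a call, against 7.77% of all genes, and 1 had an adjusted p under 0.05, as did 45% of all genes. That was KRT79, which did not rise by 24 h in control cells and did in sgEPCR cells. The difference was 4.98 ± 0.71 (edgeR adjusted p = 2.4e-04), and 4.79 ± 0.77 without the 2 libraries rich in mitochondrial counts (edgeR adjusted p = 7.1e-05, a call). In DMSO KRT79 had 0, 2 and 1 counts in sgEPCR cells against 9, 7 and 9 in control cells (log2 -2.70 ± 0.64, edgeR adjusted p = 0.0075), a gap that enters this difference. The difference was 2.19 ± 1.18 for KRT13 and -0.86 ± 0.39 for KRT9 (edgeR adjusted p = 0.16 and 0.092). For KRT15 the adjusted p was 0.17, with no size given since control DMSO was at 0. For KRT7 the difference was 3.42 ± 1.33 and for KRT10 0.19 ± 0.24 (edgeR adjusted p = 0.058 and 0.54). Which keratins had an adjusted p under 0.05 depended on the 2 libraries rich in mitochondrial counts. Without them KRT13 (3.02 ± 1.17), KRT7 (5.90 ± 1.73), KRT9 (-0.79 ± 0.16) and KRT10 (0.49 ± 0.15) were also under it (edgeR adjusted p = 0.033, 0.0083, 5.5e-04 and 0.01), and KRT15 was not (edgeR adjusted p = 0.11). For this difference that fit called 1518 genes higher and 1602 lower out of 16360, against 573 and 663 of 15901 with all libraries. The share of all genes under 0.05 without them is not given here. In UM171 itself, sgEPCR cells stood above control cells by 2.43 ± 0.36 for KRT13 and 2.29 ± 0.36 for KRT79, both on the log2 scale (edgeR adjusted p = 3.5e-04 and 4.8e-04). Neither passed, while both did without the 2 libraries (2.61 ± 0.22 and 2.37 ± 0.35, edgeR adjusted p = 9.1e-08 and 2.9e-05). In that fit 996 of 16360 genes were called higher and 619 lower, against 425 and 284 of 15901 with all libraries. Without sgEPCR UM171 replicate 2 alone KRT13 passed as well (2.60, edgeR adjusted p = 9.8e-05). The number of calls between the genotypes was 0 in DMSO (2.84% of all genes) and 0 in UM171 (4.46%), with 1 and 4 keratins at an adjusted p under 0.05 (33.7% and 43% of all genes) and 0 and 2 called by DESeq2. In UM171 DESeq2 called 939 of 15901 genes higher and 545 lower. Without the 2 libraries, KRT10 was lower in sgEPCR than in control cells in DMSO by a log2 difference of -0.55 ± 0.11 (edgeR adjusted p = 6.3e-04), with KRT79 at -2.42 ± 0.72 and KRT7 at -4.89 ± 1.67 (edgeR adjusted p = 0.01 and 0.022) and KRT15 at an adjusted p of 0.035. In UM171 without them KRT9 gave -0.55 ± 0.07 and KRT15 1.11 ± 0.21 (edgeR adjusted p = 9.1e-06 and 5.3e-04).

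Other genes of the epithelial cell and its filaments were read from lists. Of 25 filament partners and anchors, 14 were tested in the time course. Those called at 72 h were DSG2 and DSC2, desmosomal cadherins, and SYNM, an intermediate filament protein, all higher, and PLEC and EPPK1, which link filaments to other structures, and LMNB2, a nuclear lamin, all lower, against 15% of all genes called higher and 5.8% called lower. DSC2 rose from 0.91 ± 0.05 to 4.13 ± 0.261 TPM and PLEC fell from 68.1 ± 6.67 to 18.1 ± 2.23 TPM (SD, n = 3). PLEC in sgEPCR cells stood at 19 ± 11.2 TPM without and 84.2 ± 52.8 TPM with UM171 (SD, n = 3), which was not called. The 14 had a median log2 change of 0.39, against 0.02 for all genes. DSG2 was near 0 in DMSO, at 0.0367 ± 0.0462 TPM, and at 0.42 ± 0.0608 TPM at 72 h (SD, n = 3). The counts and medians of this list are therefore a description. In sgEPCR UM171 VIM, which encodes vimentin, DSC2, DST and LMNA, a lamin gene, were called higher out of 14 tested and 0 lower. Of all genes 6.99% were called higher and 530 of 15901 lower, and the median was 1.57 against -0.01 for all genes. Of 20 keratinization and cornified envelope genes, 3 were tested and CSTA, the protease inhibitor cystatin A, which myeloid cells also express, was the 1 called at 72 h, from 63.6 ± 2.08 to 214 ± 2.27 TPM (SD, n = 3). The median of these 3 was 1.68, against 0.02 for all genes, of which 15% were called higher. CSTA in sgEPCR cells stood at 56.4 ± 12.7 TPM without and 47.9 ± 7.21 TPM with UM171 (SD, n = 3), which was not called.

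Of 20 epithelial regulators, 7 were tested. At 6 h 5 were called higher (PRDM1, KLF5, ESRP1, TFAP2A and GRHL3), against 6.78% of all genes. At least ESRP1, with 2 to 4 counts in DMSO, passed the filter through UM171 libraries alone. The counts and medians of these regulators are therefore a description. At 24 h ESRP1 and PRDM1 were called higher (9.03% of all genes) and KLF4 lower (4.7%). At 48 and 72 h ESRP1, a splicing regulator and not a transcription factor, was the 1 called, higher (11.7% and 15% of all genes). The median log2 change of the 7 was 1.61 at 6 h and 0.86 at 72 h, against 0.02 for all genes at both times. In sgEPCR cells 6 were tested and 0 were called in UM171, with a median of 1.56 against -0.01 for all genes. Of all genes 6.99% were called higher there, and 530 of 15901 lower. Epithelial markers (10 genes, ESRP1 among them) summed to 1.66 to 2.48 TPM in DMSO. The sums ran from 5.61 to 5.78 TPM at 6 h, from 2.37 to 3.83 TPM at 24 h, from 3.41 to 4.09 TPM at 48 h, and from 7.39 to 7.57 TPM at 72 h. In sgEPCR cells they summed to 0.72 to 1.81 TPM in DMSO and 3.34 to 7.06 TPM in UM171. The markers at 3 counts throughout the 72 h group were ESRP1, EPCAM, CLDN1 and CLDN7, and CLDN7, a tight junction protein, held most of the sum at 6.08 TPM. TP63 and GRHL2 were among those at 0 in all 72 h libraries. Of the 4 tested, ESRP1, EPCAM and CLDN7 were called higher at 72 h (15% of all genes), with a median of 2.89 over the 4. ESRP1, with 2 to 4 counts in DMSO, and EPCAM, with 0 to 1, passed the filter through UM171 libraries alone, so this count and median are a description.

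Markers of other cell types were summed in the same way. Of 6 fibroblast markers, 4 were tested and the collagen genes COL1A1, COL1A2 and COL3A1 were called higher at 48 and 72 h (11.7% and 15% of all genes), with a median log2 change of 4.40 over the 4 at 72 h. These 3 had 0 to 7 counts in DMSO and passed the filter through UM171 libraries alone, so the count and median are a description. The sum of the list went from 0.16 to 0.45 TPM in DMSO to 2.78 to 3.63 TPM at 72 h, and from at most 0.02 TPM in sgEPCR DMSO to 2.38 to 3.71 TPM in sgEPCR UM171. LUM was at 0 in all libraries and DCN in all libraries of 5 groups, while COL3A1 alone gave 1.38 TPM at 72 h. Of 5 endothelial markers, PECAM1, which leukocytes also carry, reached the floor in every group, and the list summed to 42.1 to 46 TPM in DMSO, 42.4 to 43.9 TPM at 6 h, 12.7 to 13.7 TPM at 24 h, 16.2 to 17.9 TPM at 48 h and 39.8 to 41 TPM at 72 h. In sgEPCR cells the sums were 5.45 to 7.96 TPM in DMSO and 15 to 30.9 TPM in UM171. PECAM1 was called lower at 24 and 48 h (4.7% and 4.67% of all genes) and higher in sgEPCR UM171 (6.99%). Of the 8 myeloid markers, LYZ was called higher at 72 h (717 ± 60.2 to 1693 ± 130 TPM) and SPI1 lower (417 ± 12.1 to 216 ± 10.7 TPM; SD, n = 3), with a median log2 change of -0.02. In sgEPCR cells MPO was the 1 called with UM171, lower, at a mean of 7.25 TPM in DMSO and 0.737 TPM in UM171. The epithelial and collagen markers thus rose, at low levels, in groups in which keratins rose, the epithelial ones also at 6 h, and their part in the keratin result was not tested.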

How the data were processed

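Per the labels, poly(A) RNA of OCI-AML5 libraries was prepared with a stranded kit. The submitters' processing notes name CASAVA 1.8.2, Trimmomatic 0.35, STAR 2.5.1b, RSEM 1.2.28 and GRCh38. For each gene the authors deposited expected counts from RSEM, not normalized, its TPM, and a posterior standard deviation of the count, another value, which has the unit of counts. The strand setting is not given in the sources used here. Identifiers were mapped to symbols with GENCODE v44. The members, lists and tests were chosen with earlier results of these data known.

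Expected counts were rounded and tested with edgeR 4.0.16 in R 4.3.3 (filterByExpr, TMM, quasi-likelihood, Benjamini-Hochberg over all genes tested), with 15 libraries in the time course fit and 12 in the 24 h fit. A call needed an adjusted p under 0.0001 and over 2-fold. SE is the absolute log2 fold change over the square root of F. Named with values were all keratins with 3 counts in every library of a group, and up to 4 called members of each list at 72 h with an average log2 CPM above 0. LINC00974, KRT10-AS1, MPO, the non-keratin genes past KRT17 and the list members named without values fall outside that rule and were chosen after their values were seen. Replicates differed beyond sampling noise (chi-square per degree of freedom 1.65 to 717). The scripts were tested on simulated data. Alternatives were limma 3.58.1 on log2(TPM + 1), DESeq2 1.42.0, other scalings, filters, floors and thresholds, a replicate block and leaving out each library. Fits without the 2 libraries rich in mitochondrial counts (over 20%) were added after seeing the data. Figures used Python 3.11.15 and matplotlib 3.10.9. Values of some single list members are not reported here.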

Additional observations from a re-analysis of the deposited data

Results flagged for a closer look

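The 24 h response of KRT79 differed between control and sgEPCR cells by a test of the difference itself, at an adjusted p under 0.05. The log2 response in sgEPCR cells minus that in control cells was 4.98 ± 0.71 (edgeR quasi-likelihood test, adjusted p = 2.4e-04), and KRT79 counts went from 0, 2 and 1 to 77, 33 and 53 in sgEPCR cells and from 9, 7 and 9 to 11, 14 and 13 in control cells. DESeq2 gave 5.15 ± 1.05 (adjusted p = 4.5e-06). The gap in KRT79 between sgEPCR and control cells in DMSO enters this difference (log2 -2.70 ± 0.64, edgeR adjusted p = 0.0075). Control DMSO was labelled 72 h and sgEPCR DMSO 24 h.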

How the results depend on the processing

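The calls for KRT9, KRT13 and KRT15 at 24 h and for these with KRT79 at 48 and 72 h kept their direction and their side of the limits under every alternative that tested the gene. For the step from 24 to 48 h limma called 3, with KRT79 missing the limit on p (1.01 ± 0.15, limma adjusted p = 2.8e-04). A filter of at least 10 counts in every library kept KRT9 and KRT10 alone for testing, so the number called was 1 at 24, 48 and 72 h, from 6 to 24 h, from 24 to 48 h and for UM171 in sgEPCR cells, and 0 from 48 to 72 h. At an adjusted p under 0.05 with no minimum fold the numbers were 2 at 6 h, 4 from 48 to 72 h, 1 for the difference between responses, and 1 in DMSO and 4 in UM171 between genotypes. For UM171 in sgEPCR cells 0 keratins were called under the replicate block and 0 by limma on log2(TPM + 1), and with total count scaling KRT9 was not called (3.09, adjusted p 2.7e-04). Same-numbered libraries correlated at -0.0827 to 0.0778 in the time course, which gave no sign of pairing by replicate number. Between the sgEPCR groups they correlated at -0.609, -0.604 and 0.448. The 2 libraries rich in mitochondrial counts carry different numbers and correlated with each other at 0.688. The sgEPCR correlations therefore cannot decide whether the number pairs samples. Under the block the sgEPCR changes had adjusted p from 6.8e-04 to 0.0023 at sizes of 2.88 to 6.65 (log2). The block gave no value for the genotype contrasts. DESeq2 called 1 keratin for the difference between responses and 2 between genotypes in UM171, as did the fits without the 2 libraries rich in mitochondrial counts (1 and 2). Of all 15901 genes DESeq2 called 1340 higher and 1231 lower for the former, and 939 and 545 for the latter. At a floor of 10 counts 3 keratins were switched on at 24 h, 3 at 48 h and 3 in sgEPCR UM171, and at 0.1 TPM 3 in sgEPCR UM171. The shares of all protein-coding genes switched on at these floors, or with a library left out, are not given here. These numbers therefore cannot be set against a background. Leaving out each library gave 0 to 1 called between genotypes in UM171 (1 without sgEPCR UM171 replicate 2) and 0 to 1 switched on at 6 h (1 without UM171 6 h replicate 1), 1 to 2 at 24 h (2 without DMSO replicate 2) and 1 to 2 at 48 h (2 without DMSO replicate 2 or UM171 48 h replicate 3).

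Values that were not called turned in sign around 0 (log2). KRT10 at 6 h gave 0.07 with total count scaling and 0.09 by limma, and -0.22 to 0.03 on leaving out a library, with -0.18 to 0.06 at 24 h. Its step from 6 to 24 h gave -0.08 (upper quartile), -0.12 (total count), -0.13 (limma) and -0.00 to 0.10. KRT13 at 6 h gave 0.05 by limma and -1.27 to 0.87, and from 48 to 72 h 0.05 (upper quartile), 0.04 (total count), 0.07 (limma) and -0.11 to 0.03. KRT79 from 6 to 24 h gave 0.01 (no filter), 0.02 (limma) and -0.36 to 0.28. Between genotypes in DMSO, KRT9 gave -0.03 (upper quartile), -0.17 (total count), -0.23 (limma) and -0.11 to 0.24, and KRT13 -0.02 (limma), -0.41 (without the 2 libraries) and -0.41 to 1.49. The KRT15 difference between responses gave 0.52 by limma. The causes were not tested. Total count scaling put the median log2 change of all genes at 0.203 at 6 h and at -0.249 between genotypes in DMSO. With 0 to 13 counts per library, KRT7, KRT19 and KRT80 are limited by depth.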
